A study of Mus musculus with 18 samples.

Results

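The response to TGF-β1 was measured in bone marrow macrophages labelled Smad1 knockout, by comparing 3 libraries of cells given 10 ng/ml TGF-β1 for 4 h with 3 libraries of untreated cells of the same label. These are 6 of the 18 libraries of the study, chosen by genotype and treatment labels alone, and the members described are the 14684 genes that passed a low-count filter, out of 54532 in the count table. Both groups are of genotype Smad1 fl/fl with LyzM-Cre (MyS1KO in the labels), where Cre, driven by the lysozyme M gene Lyz2 and so active in myeloid cells, is meant to cut the floxed Smad1 alleles. Cells came from the tibial marrow of mice 2 to 3 months old, were expanded with WEHI-3 conditioned medium and CSF-1, a macrophage growth factor, and went without serum for about 16 h before treatment. Floxed-labelled cells (Smad1 fl/fl, with no Cre named), given TGF-β1 or left untreated, are compared only in a test of the difference between the labels. The remaining libraries, of both labels, were given 50 ng/ml BMP4, a bone morphogenetic protein, for 4 h. They are in no comparison, but all 18 libraries set the low-count filter, the scaling and the error of each test. No label states that replicates are separate mice or cultures, so p-values measure the spread between these libraries, which may be technical.

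TGF-β1 binds a complex of type I and type II receptor kinases, which phosphorylate Smad2 and Smad3. These join Smad4, enter the nucleus and act on target genes, among them genes whose products shut the pathway down again. Smad1 and Smad5 are the usual transducers of bone morphogenetic proteins (BMPs), and in some cells TGF-β can also activate them through other type I receptors. In macrophages TGF-β is known for dampening inflammatory gene expression and for supporting the identity of tissue macrophages such as microglia.

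Total counts were 15153296, 18636282 and 19064269 in the TGF-β1 libraries, and 16166856, 16533837 and 15989866 in the untreated ones. Values are given in CPM (counts scaled by library size and TMM factor) for libraries 1, 2 and 3 in that order, and 3 counts, the floor used here, are 0.157 to 0.198 CPM. On the first principal component of the 6 libraries (60.2% of the variance) the TGF-β1 libraries lay at 39.2, 38.4 and 37.3, and the untreated ones at −39, −38 and −37.9. The libraries numbered 2 lay apart on the second component (14.2%), at −23.5 with TGF-β1 and −28.3 untreated, against 8.43 and 15.3 (TGF-β1) and 10.7 and 17.3 (untreated) for the rest. Counts below that moved by over 1.5 times without this pair are also given without it. Summed macrophage markers were 35100 to 36400 CPM with TGF-β1 and 33800 to 37300 CPM untreated. Fibroblast markers summed to 0.853 to 2.67 CPM against 2.36 to 3.14 CPM, with Lum at 0 in all 6 libraries. Neutrophil markers summed to 362 to 447 CPM against 346 to 375 CPM, most of which came from the receptor gene Csf3r, at 253, 287 and 260 CPM against 237, 235 and 219 CPM. Endothelial markers summed to 46.8 to 77.6 CPM against 29.3 to 41.6 CPM, with Vwf at 44, 70.7 and 38.3 CPM against 22.6, 36.5 and 24.5 CPM, and lymphoid markers to 108 to 136 CPM against 54.1 to 73.7 CPM, nearly all of it Il7r, with Cd3e at 0 throughout. What part such cells have in any result was not tested. In the main test 2 of 4 endothelial, 2 of 10 neutrophil and 1 of 3 lymphoid markers rose and 0 fell, where 17.6% of all genes rose. The same test called 1 of 2 mast cell and basophil markers higher and 0 lower. It called 2 of 9 dendritic cell and 1 of 5 osteoclast markers lower and 0 higher, where 17.1% of all genes fell. Of 8 monocyte markers 0 were called, against 34.6% of all genes. With the replicate block within genotype, F13a1 (log2 −0.31, edgeR adjusted p = 0.00298) and Vcan (−0.59, adjusted p = 0.00332) of that list were called lower. In bulk RNA, fewer cells of a type and less RNA per cell cannot be told apart.

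The counts of Lyz2 go against the genotype labels. In LyzM-Cre mice Cre is inserted into Lyz2 and disrupts it, so that carriers are known to lose part or all of their Lyz2 transcript. Knockout-labelled libraries had 13400, 13900 and 13500 CPM of Lyz2 with TGF-β1 and 15100, 17300 and 15700 CPM untreated. Floxed-labelled libraries had less, 37.6, 8120 and 8130 CPM with TGF-β1 and 62.1, 9760 and 9680 CPM untreated, and those numbered 1 stood far below the rest. The cells are therefore called knockout-labelled throughout, and any direction between the labels is a direction between labels only. Smad1 itself was present at 20.4, 23.6 and 19.5 CPM with TGF-β1 and 26.8, 26 and 26 CPM untreated, and since the labels do not name the deleted exon, these counts do not check the knockout.

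RefSeq (GRCm38.p6) promoter windows run from 250 bases before to 50 bases after the annotated start. Windows of 4 genes are shown, because the Smad proteins bind short DNA elements that can be looked for in them. Smad6 and Tmeff1 are among the largest rises, Runx3 comes from the Runx list and Id2 differed between the labels. All 4 hold a Smad element, so they are not a sample of the genes that changed. F2r and Olr1, also among the largest rises, have windows with no Smad element searched for here. Capitals mark GTCTAGAC, the palindromic Smad-binding element, in Smad6 (chr9:64022010-64022309, minus strand) and Runx3 (chr4:135152295-135152594, plus strand). They mark GGCGCC, a GC-rich Smad element, in Tmeff1 (chr4:48584924-48585223, plus strand) and Id2 (chr12:25096043-25096342, minus strand). Each is written 5′ to 3′ along its gene.
Smad6: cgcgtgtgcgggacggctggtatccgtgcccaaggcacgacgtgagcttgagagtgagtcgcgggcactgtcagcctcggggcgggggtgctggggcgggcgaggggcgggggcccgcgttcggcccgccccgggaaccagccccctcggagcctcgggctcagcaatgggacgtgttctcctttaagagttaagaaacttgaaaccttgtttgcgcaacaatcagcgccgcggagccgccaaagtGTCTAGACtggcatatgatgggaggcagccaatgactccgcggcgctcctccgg
Runx3: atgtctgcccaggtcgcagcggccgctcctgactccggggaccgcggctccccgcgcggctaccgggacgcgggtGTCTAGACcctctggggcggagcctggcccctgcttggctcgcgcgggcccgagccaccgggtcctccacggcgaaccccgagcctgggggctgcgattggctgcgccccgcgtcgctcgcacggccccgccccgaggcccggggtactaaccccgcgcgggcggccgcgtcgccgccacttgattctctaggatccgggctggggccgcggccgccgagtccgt
Tmeff1: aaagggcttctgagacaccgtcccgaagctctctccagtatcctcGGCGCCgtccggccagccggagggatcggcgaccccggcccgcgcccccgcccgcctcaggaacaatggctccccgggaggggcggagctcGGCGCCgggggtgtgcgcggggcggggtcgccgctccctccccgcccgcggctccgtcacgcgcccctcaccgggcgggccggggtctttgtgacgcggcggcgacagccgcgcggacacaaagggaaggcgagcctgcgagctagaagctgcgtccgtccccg
Id2: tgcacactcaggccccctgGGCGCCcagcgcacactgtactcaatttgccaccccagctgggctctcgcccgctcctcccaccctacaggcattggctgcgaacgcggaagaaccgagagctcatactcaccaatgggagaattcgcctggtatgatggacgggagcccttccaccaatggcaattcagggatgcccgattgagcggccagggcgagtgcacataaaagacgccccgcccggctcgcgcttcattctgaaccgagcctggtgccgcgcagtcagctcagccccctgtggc

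The GTCTAGAC element begins 4 bases before the annotated start in Smad6 and 175 bases before it in Runx3, and the GGCGCC elements begin 205 and 114 bases before it in Tmeff1 and 231 in Id2. Over both strands, GTCTAGAC was in the windows of 3 of 412 genes that rose at least 2-fold (0.728%), of 0 of 392 that fell at least 2-fold, of 0.286% of 10157 tested genes with a window and of 0.248% of 27025 genes in the table. GGCGCC was in 24%, 18.4%, 23.2% and 13.4% of the same sets, and AGCCAGACA, the CAGA box, in 0.728%, 0.765%, 0.335% and 0.433%. TGANTCA, the site of AP-1 factors, was in 10.2%, 9.95%, 6.45% and 8.97%. None of these 4 motifs contains another. These are shares of letter matches in short windows. Of the 325 genes chosen for description 245 had a window, and Pmepa1, Skil and Smad7 were not among them.

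At an adjusted p under 0.05, 5084 genes were called, 34.6% of those tested. Of these, 2578 rose (17.6%) and 2506 fell (17.1%), and at least 2-fold changes were called for 595 genes that rose (4.05%) and 626 that fell (4.26%). All 3 pairs of same-numbered libraries moved the same way in 2564 of the genes that rose and 2484 of those that fell. The 3 TGF-β1 libraries did not overlap the 3 untreated ones in 6594 genes (44.9%). The largest folds were more often rises: 79 genes rose and 29 fell at least 8-fold, and 28 rose and 6 fell at least 16-fold. The share called depended on level. Of genes under 1 CPM untreated 8.95% rose and 4.15% fell, of those at 100 to 300 CPM 25.6% and 31.2%, and of those over 300 CPM 20.7% and 33.3%. Every list count below, also where no share stands beside it, is to be read against the 17.6% and 17.1% of all genes. These shares are not matched for level. Genes that rose held 30.5%, 30.4% and 30.5% of the counts with TGF-β1 and 21.2%, 21.1% and 21.4% untreated. Genes that fell held 18.7%, 18.6% and 18.8% against 27.1%, 26.5% and 26.9%. The counts of same-numbered pairs and these shares describe genes called from the same libraries, so they are no separate support for the calls.

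**Figure D1:**
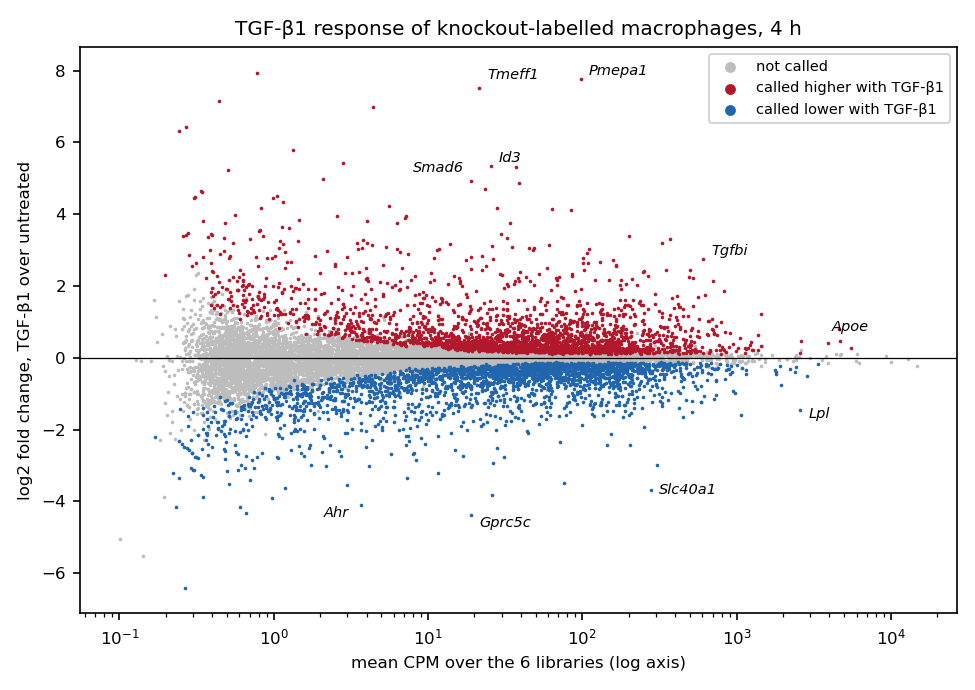
Log2 fold change of each tested gene (TGF-β1 over untreated, vertical) against its mean CPM over the 6 knockout-labelled libraries (horizontal, log axis), coloured by call. Of the genes marked, Pmepa1 and Tmeff1 stand highest, at log2 7.77 and 7.52, and Gprc5c lowest, at −4.37. Tmeff1 untreated, like the few points beyond the marked genes in 1 group, is near 0 counts, so that these fitted values depend on the prior count.

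Feedback inhibitors of the pathway held several of the largest rises. Of 17 tested, 11 rose and 3 fell (median log2 0.90, against 0 over all genes), where 17.6% of all genes rose. Pmepa1, a membrane protein that keeps Smad2 and Smad3 from the receptor, had 194, 184 and 204 CPM with TGF-β1 and 1.15, 0.793 and 0.691 CPM untreated (log2 7.77, SE 0.12, adjusted p = 2.88e-19). Spsb1, which targets the type II receptor for degradation, had 73.2, 73.8 and 80.3 CPM against 2.3, 2.62 and 2.76 CPM (log2 4.88, SE 0.12). All TGF-β1 libraries of both genes lay above all untreated ones. The inhibitory Smads rose as well. Smad7 had 59.7, 52.7 and 50.6 CPM against 4.9, 4.45 and 5.66 CPM (log2 3.44, SE 0.12), and Smad6 36.9, 34.6 and 39.3 CPM against 1.27, 0.732 and 1.63 CPM (log2 4.93, SE 0.33, adjusted p = 4.22e-10). The Smad corepressors Ski and Skil rose by log2 1.51 and 1.68, the corepressor Tgif1 by 1.23 and the ubiquitin ligases Smurf1 and Smurf2 by 0.90 and 0.80. The 3 that fell were Wwp1, a related ligase at 592, 764 and 621 CPM against 1150, 1320 and 1250 CPM (log2 −0.91), the pseudoreceptor Bambi (−0.51) and Fkbp1a (−0.24), which binds type I receptors. Without both libraries numbered 2, 1 of the list was called lower in place of 3.

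Among receptors 3 of 11 rose and 3 fell, against 17.6% and 17.1% of all genes. The type I receptor Tgfbr1 had 890, 1050 and 929 CPM with TGF-β1 and 255, 313 and 290 CPM untreated (log2 1.74, SE 0.12, adjusted p = 4.48e-10). Its partner Tgfbr2, the type II receptor, moved the other way, at 227, 208 and 212 CPM against 279, 300 and 310 CPM (log2 −0.46, SE 0.07). The BMP type I receptor Acvr1 rose (log2 0.81), as did the BMP type II receptor Bmpr2 (0.34), and the activin receptor Acvr2a fell (−0.61). Of 5 Smads, Smad1 (log2 −0.31, adjusted p = 0.00425) and Smad3 fell. Smad3 had 22.2, 14.5 and 21.9 CPM against 25.3, 22.2 and 26.8 CPM (log2 −0.35, adjusted p = 0.0397), and 1 Smad in place of 2 was called without the untreated library numbered 1 or 3, without the TGF-β1 library numbered 2, and without both libraries numbered 2. Smad2, Smad4 and Smad5 lay at log2 −0.02, −0.03 and 0.17. Among ligands and proteins of the latent complex 5 of 11 fell and 1, Ltbp3, was called higher (log2 0.24), a call lost without the untreated library numbered 1 or 3 or the TGF-β1 library numbered 2, and the count was 2 without the TGF-β1 library numbered 3. Nrros, which anchors latent TGF-β1 on myeloid cells, had 111, 96.3 and 107 CPM against 302, 306 and 313 CPM (log2 −1.55, SE 0.06), Tgfb1 fell (log2 −0.37), and Bmp2 had 0.735, 0.436 and 0.267 CPM against 5.62, 6.28 and 4.46 CPM.

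**Figure D2:**
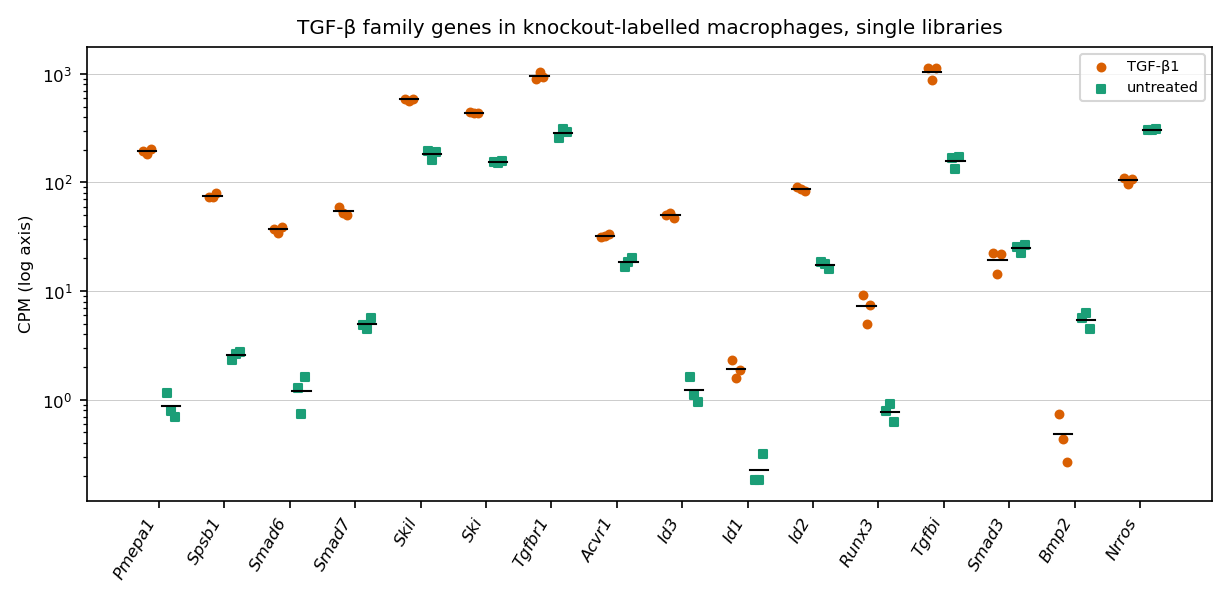
CPM of 16 TGF-β family genes and targets in single knockout-labelled libraries (log axis), TGF-β1 left and untreated right, with bars at the means of 3 libraries. The group means of Pmepa1, Spsb1, Smad6 and Smad7 differ by more than 10-fold, while Nrros and Bmp2 lie lower with TGF-β1 and the Smad3 groups meet.

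The Id genes, which encode inhibitors of basic helix-loop-helix factors and are usual BMP targets, all rose where tested (3 of 3; Id4 was at 0). Id3 had 50.1, 52.6 and 46.7 CPM with TGF-β1 and 1.63, 1.1 and 0.943 CPM untreated (log2 5.33, SE 0.50). Id2 had 91.3, 87.1 and 84.2 CPM against 18.6, 17.6 and 16 CPM (log2 2.33, SE 0.07). Id1 stayed low, at 2.34, 1.58 and 1.87 CPM against 0.181, 0.183 and 0.314 CPM, which is near the floor. Of 7 other BMP targets tested 5 rose and 1 fell. Runx2, an osteogenic Runt factor, had 28, 26.9 and 27.6 CPM against 9.25, 7.99 and 8.29 CPM, and Gata2, also a mast cell marker, had 1.2, 1.74 and 1.55 CPM against 0.302, 0.061 and 0 CPM. Without the TGF-β1 library numbered 3 the count that rose was 3, and without both libraries numbered 2 the count that fell was 0. The related factor Runx3, whose window is printed above, had 9.29, 5.01 and 7.46 CPM against 0.786, 0.915 and 0.628 CPM (log2 3.20, SE 0.34). In all, 4 of 6 genes for Runx factors and their partners rose and 1 fell.

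Of 19 other TGF-β and Smad3 targets 13 rose and 3 fell (median log2 0.88). The 3 that fell were Tns1 (log2 −1.69), Cdkn2b (−1.24) and Zeb2 (−0.31). In a separate list, of plasminogen activation and coagulation, 4 of 15 genes rose and 2 fell, with Thbd at log2 −1.23. The number that fell was 4 with the replicate block within genotype and 1 without both libraries numbered 2. Of that list, the urokinase gene Plau (a secreted protease) had 190, 191 and 185 CPM with TGF-β1 and 21.9, 27.9 and 25.5 CPM untreated (log2 2.91, SE 0.12), and the urokinase receptor Plaur rose by log2 1.16. The adhesive matrix protein Tgfbi had 1130, 875 and 1140 CPM against 169, 133 and 170 CPM, and Bhlhe40, a repressor, 20.2, 32.7 and 22 CPM against 2.42, 2.75 and 3.08 CPM. The integrin subunits Itgb5 and Itga5 rose (log2 2.14 and 2.24), as did Itgav (1.41), whose protein pairs with several β subunits to bind latent TGF-β. Of 17 integrin subunits 5 rose and 6 fell, with Itga4 at log2 −1.09. Of 27 extracellular matrix genes 2 rose, Tgfbi and Emilin1 (log2 0.43), and 3 fell, against 17.6% and 17.1% of all genes. With the replicate block within genotype, 6 matrix genes were called lower. The growth factor genes Pdgfa and Pdgfb rose by log2 4.14 and 2.18, among 7 of 17 growth factor genes that rose and 3 that fell, with Igf1 at log2 −0.62.

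Outside the lists, Tmeff1 (ENSMUSG00000028347, chromosome 4, 48585174 to 48663131), a transmembrane protein with follistatin-like domains, had 35.8, 47 and 44.5 CPM with TGF-β1 and 0.181, 0.122 and 0.377 CPM untreated (log2 7.52, SE 0.27). The untreated values lie near the floor, and the estimate ran from log2 4.01 to 8.07 over the alternatives, lowest on log2(FPKM + 1). The gene that follows it on the same strand, Cavin4 (48663514 to 48673502), had 1.74, 1.09 and 1.87 CPM against 0 in each untreated library, at least 8.49-fold higher by a floor of 3 counts per library. Whether counts of Cavin4 hold reads that run on from Tmeff1 was not tested. The thrombin receptor gene F2r had 6.35, 4.47 and 5.76 CPM against 0, 0.183 and 0.189 CPM, and the oxidised lipoprotein receptor Olr1 3.67, 4.14 and 4.26 CPM against 0.121, 0.122 and 0.126 CPM, both at or under the floor without TGF-β1. Cspg4, a proteoglycan, rose (log2 4.70), as did the adhesion molecule Mcam (4.24). Among the largest falls, Gprc5c, an orphan receptor, had 1.74, 2.23 and 1.28 CPM against 30.9, 46.8 and 31.4 CPM (log2 −4.37, SE 0.24), the endothelin receptor Ednrb 9.89, 12.1 and 15.1 CPM against 134, 144 and 140 CPM (log2 −3.48, SE 0.10), and the small GTPase Rnd3 4.41, 2.5 and 3.57 CPM against 50.3, 43.9 and 51.3 CPM (log2 −3.81). Ahr, the aryl hydrocarbon receptor, had 0.468, 0.381 and 0.373 CPM against 7.13, 7.2 and 6.54 CPM, and of 6 tested members of its pathway 3 fell and none rose, Ahrr (−0.76) and Tiparp (−0.52) being the others.

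Of 845 tested genes in families of transcription factors 158 rose and 159 fell, close to the 17.6% and 17.1% of all genes. Of 25 macrophage identity factors 9 rose and 11 fell: Cebpa, a myeloid factor, had 610, 676 and 613 CPM with TGF-β1 and 187, 204 and 180 CPM untreated (log2 1.73), and Mef2a 758, 787 and 750 CPM against 285, 271 and 296 CPM (log2 1.43). Pparg, a lipid-sensing nuclear receptor, fell to 16.3, 13.8 and 14 CPM, against 49, 49.9 and 49.7 CPM, and Maf to 231, 194 and 231 CPM, against 688, 649 and 705 CPM. Cebpb rose (log2 1.01) while its relative Cebpd fell (−1.67). Among AP-1 and Egr genes 6 of 22 rose, with Junb at log2 1.37 and Fos at 1.57, and 4 fell, with Batf at −2.01. The Notch genes were called in 12 of 13 cases, 9 higher and 3 lower: Notch1 and Notch4 rose by log2 0.85 and 2.73, while Notch2 (−1.02) and Rbpj (−1.03), the DNA-binding partner of the receptors, fell. Of the Notch targets, Hes1 was at 0.468, 0.708 and 0.8 CPM against 0, 0 and 0.0628 CPM.

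Genes that mark microglia and depend on TGF-β there rose more often than they fell (11 and 4 of 28, median log2 0.29). Tmem119, a microglial surface protein, had 7.55, 3.87 and 7.3 CPM with TGF-β1 and 1.09, 0.305 and 0.88 CPM untreated (log2 3.03, SE 0.45, adjusted p = 2.41e-05). Olfml3 had 110, 77.3 and 115 CPM against 19.1, 10.9 and 23.4 CPM. The groups were apart in both. P2ry12, a microglial ADP receptor, was not called, at 9.62, 11.1 and 10.9 CPM against 8.46, 9.64 and 10.2 CPM, its relative P2ry13 fell (log2 −1.06), and Sall1 was at 0 in all 6 libraries. The number that fell was 2 without the untreated library numbered 2, without the TGF-β1 library numbered 3, and without both libraries numbered 2.

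Genes of apoptotic cell uptake were called in 13 of 19 cases, 7 higher and 6 lower. The receptor tyrosine kinase Axl had 673, 720 and 717 CPM with TGF-β1 and 405, 422 and 439 CPM untreated, and its relative Mertk 272, 281 and 285 CPM against 193, 198 and 195 CPM. Their ligand gene Gas6 moved the other way, at 375, 463 and 349 CPM against 617, 782 and 646 CPM (log2 −0.78). The inhibitory receptor Cd300a had 116, 118 and 117 CPM against 271, 285 and 260 CPM. Of genes of alternative activation 5 of 16 rose and 6 fell. The transglutaminase Tgm2 had 173, 153 and 194 CPM against 30, 30 and 34.7 CPM (log2 2.46), and Arg1, which breaks down arginine, 4.74, 2.34 and 5.65 CPM against 0.786, 0.549 and 0.817 CPM (log2 2.55). The members that fell included Mrc1, Cd163 and Clec10a, described below with the lectins and the iron genes.

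Proteases gave more rises than falls in the ADAM family (8 and 3 of 15, median log2 0.44) and among cathepsins and cystatins (6 and 1 of 18, or 6 and 3 with the replicate block within genotype and 2 falls without the untreated library numbered 1). The sheddase Adam10 had 520, 474 and 487 CPM with TGF-β1 and 231, 215 and 250 CPM untreated (log2 1.09, SE 0.07). Cathepsin D, from Ctsd, had one of the largest gains in CPM, at 5420, 6440 and 5720 CPM against 3120, 3740 and 3330 CPM, and Cpd, a carboxypeptidase, had 1330, 1200 and 1340 CPM against 369, 296 and 404 CPM. Of 15 matrix metalloproteinases and inhibitors only Mmp2 rose, at 3.41, 3.21 and 5.33 CPM against 1.39, 0.976 and 1.45 CPM. The count that fell, 4, was 1 or 2 without any of the untreated libraries numbered 1 and 3 or of the 3 TGF-β1 libraries and 2 without both libraries numbered 2, and the count that rose was 2 without the TGF-β1 library numbered 2 and 3 with the replicate block within genotype.

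Actin and adhesion genes were called 10 times higher and 9 times lower among 36, against 17.6% and 17.1% of all genes. The nonmuscle myosin Myh9 had 2090, 1920 and 2050 CPM with TGF-β1 and 887, 807 and 931 CPM untreated, the crosslinker Actn1 rose (log2 1.23), and the adaptor Pdlim7 had 25, 22.3 and 26.4 CPM against 4.78, 5.25 and 5.22 CPM. Vinculin (Vcl) and tensin 1 (Tns1), which join integrins to actin, fell (log2 −0.90 and −1.69). Genes with the names Arhgap and Arhgef, regulators of small GTPases, fell in 23 of 46 cases and rose in 9, with a median of log2 −0.31. Among semaphorin pathway genes 5 of 17 rose and 5 fell, against 17.6% and 17.1% of all genes. Without both libraries numbered 2, 3 fell. Sema6d, a transmembrane semaphorin, had 1.87, 1.09 and 1.07 CPM against 13.7, 15.8 and 10.5 CPM (log2 −3.34), the receptor Plxna4 11.9, 13.7 and 9.44 CPM against 3.51, 2.56 and 2.83 CPM, and neuropilin 1 (Nrp1) 199, 185 and 193 CPM against 382, 379 and 416 CPM.

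Inhibitors of MAP kinase signalling moved both ways within families (3 of 12 rose and 3 fell, or 6 fell with the replicate block within genotype). In the main test 17.6% of all genes rose and 17.1% fell. Spred2 had 22.9, 18.8 and 20.6 CPM with TGF-β1 and 8.46, 7.32 and 8.99 CPM untreated, while Spred1 had 91.1, 74.9 and 78.7 CPM against 190, 209 and 211 CPM. Colony-stimulating factor genes rose in 4 of 9 cases with 0 falls in the main test and 1 with that block. Csf1, the macrophage growth factor itself, had 7.95, 6.26 and 6.13 CPM against 2.9, 2.26 and 3.71 CPM (log2 1.19), and its receptor Csf1r was at 4930, 4910 and 4980 CPM against 4530, 4480 and 4700 CPM, which was not called (log2 0.11, edgeR adjusted p = 0.143) but was called higher with the block (adjusted p = 0.011).

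Of 19 tested C-type lectin genes 15 fell and 1, the adaptor Card9, rose (2 rose without the untreated library numbered 2; median log2 −0.98), where 17.1% of all genes fell. Clec10a, a galactose-binding lectin, had 8.49, 8.33 and 8.42 CPM with TGF-β1 and 46.6, 57.8 and 39.3 CPM untreated (log2 −2.51, SE 0.20, adjusted p = 5.31e-09). Clec4a3 fell to 76.7, 54.3 and 72.5 CPM, against 211, 189 and 208 CPM, and the mannose receptor Mrc1 to 617, 716 and 621 CPM, against 1210, 1410 and 1270 CPM. In each of these genes the groups did not overlap. Of 18 inhibitory receptors with ITIM motifs 9 fell and 1 rose. Pirb had 321, 295 and 323 CPM against 720, 721 and 716 CPM (log2 −1.20), and Lilr4b and Lilrb4a fell (log2 −1.06 and −0.98), though these near-identical copies may share reads. The exception was Cd300lf, at 68.4, 59.7 and 62.6 CPM against 4.71, 4.09 and 5.28 CPM (log2 3.76, SE 0.11). Among costimulatory and checkpoint genes 10 of 19 fell and 3 rose, with Cd200r1 at log2 −1.17, Cd83 at −1.11, and Cd276, a checkpoint ligand, at 2.35.

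Iron handling genes fell in 13 of 22 cases and 1 rose (2 without the TGF-β1 library numbered 2 or with the replicate block within genotype; median log2 −0.24). Slc40a1 (ENSMUSG00000025993, chromosome 1, 45908068 to 45926523), the iron exporter ferroportin, had 29.9, 54.1 and 35.3 CPM with TGF-β1 and 455, 605 and 481 CPM untreated (12.9-fold lower, log2 −3.69, SE 0.23). Cd163, the haemoglobin scavenger receptor, had 2.81, 1.91 and 2.13 CPM against 21.7, 22.9 and 17.9 CPM (log2 −3.20). Ncoa4, which carries ferritin to lysosomes, fell to 89.8, 91.9 and 84.8 CPM, against 260, 295 and 279 CPM, and Tfrc, the transferrin receptor, was also called lower (log2 −1.08). The heme exporter Flvcr1 rose (log2 0.48) and the ferritin gene Fth1 was at log2 0.04. Without both libraries numbered 2, 9 iron genes were called lower.

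**Figure D3:**
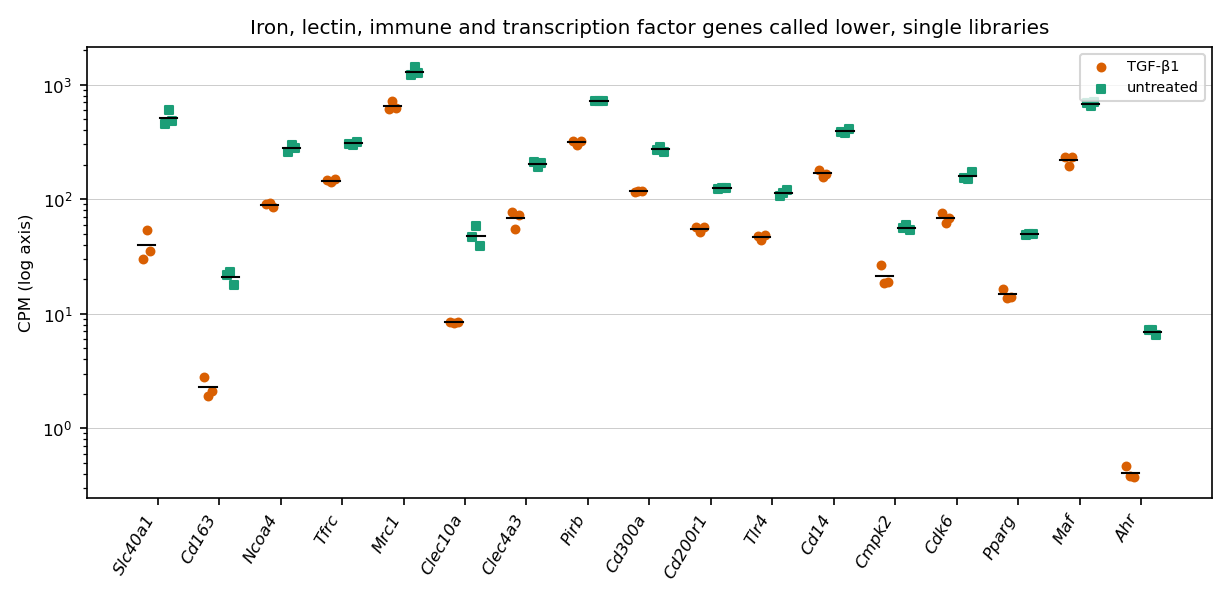
CPM of 17 genes called lower in single knockout-labelled libraries (log axis), TGF-β1 left and untreated right, with bars at the means of 3 libraries. The groups separate in every gene shown, by 12.9-fold in Slc40a1 and 1.99-fold in Mrc1.

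Of 24 Toll-like receptor genes and adaptors 10 fell and 5 rose: Tlr4, the endotoxin receptor, had 47.4, 43.8 and 48.9 CPM with TGF-β1 and 107, 112 and 119 CPM untreated, its partner Cd14 fell (log2 −1.23), and Tlr2 had 592, 502 and 589 CPM against 255, 244 and 259 CPM (log2 1.15). Among NF-κB factors and inhibitors 8 of 22 fell and 4 rose, with the kinase Ikbke at log2 −1.27. Inflammatory cytokine and inflammasome genes went both ways (8 rose and 7 fell of 23): the prostaglandin enzyme Ptgs1 rose by log2 2.22, while the inflammatory caspases Casp4 (−1.23) and Casp1 (−0.72) fell. Of 39 interferon-stimulated genes 16 fell and 1 rose (0 without the TGF-β1 library numbered 1 or 3), with a median of log2 −0.27. Cmpk2, which acts in nucleotide synthesis, had 26.5, 18.6 and 19 CPM against 56, 59.4 and 53.5 CPM (log2 −1.41), and the RNA sensor Ddx58 fell (−0.75). The count that fell depends on the libraries numbered 2: it was 10 without the TGF-β1 library numbered 2 and 8 without both. With the replicate block within genotype, which keeps these libraries, it was 24. Among chemokines, Cxcl14 and Cxcl16 rose (log2 2.15 and 1.16) and 7 of 20 fell, with Ccl3 at −1.63 and Ccl9 at −1.14. Of the chemoattractant receptors 5 of 23 rose, with the fractalkine receptor Cx3cr1 at 890, 677 and 949 CPM against 168, 112 and 184 CPM (log2 2.44) and Cxcr4 at 412, 477 and 433 CPM against 75.9, 104 and 91.7 CPM (log2 2.28), and 6 fell, or 3 without the untreated library numbered 1 and 2 without the TGF-β1 library numbered 2.

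Of 10 class II antigen presentation genes 2 rose and 2 fell, against 17.6% and 17.1% of all genes. The class II transactivator Ciita had 5.35, 3.16 and 3.89 CPM with TGF-β1 and 13.4, 15 and 12.1 CPM untreated (log2 −1.72, SE 0.20), while H2-Aa, H2-Ab1 and H2-Eb1, its main class II targets, were not called. The invariant chain Cd74 had 79.1, 88.5 and 98 CPM against 107, 118 and 121 CPM, a call lost in 4 settings. In each direction 1 gene in place of 2 was called without both libraries numbered 2, without the untreated library numbered 3 and without the TGF-β1 library numbered 1. The same held for falls without the untreated library numbered 2 and for rises without the TGF-β1 library numbered 2. Of Fc gamma receptor genes and their signalling chain 5 of 11 fell and 2 rose: Fcgr4 had 17.5, 13.3 and 16.7 CPM against 28, 31.3 and 28.2 CPM, and Inpp5d, the inhibitory phosphatase SHIP1, 928, 809 and 899 CPM against 444, 389 and 464 CPM.

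Antioxidant genes fell in 10 of 32 cases and rose in 6, where 17.1% of all genes fell and 17.6% rose. Gclm, a subunit of the enzyme that makes the glutathione precursor, had 605, 496 and 618 CPM with TGF-β1 and 219, 183 and 249 CPM untreated (log2 1.40), while the thioredoxin inhibitor Txnip fell, at 220, 201 and 242 CPM against 494, 482 and 527 CPM. Without both libraries numbered 2, 6 fell. Of 34 sterol and fatty acid synthesis genes 8 fell and 2 rose, and the number that fell was 3 to 5 without the untreated library numbered 2 or 3 or the TGF-β1 library numbered 1 or 2, and 3 without both libraries numbered 2. The 2 that rose were the desaturases Fads2 (log2 0.98) and Fads1 (0.69). Among lysosomal genes 7 of 40 rose and 7 fell, close to the 17.6% and 17.1% of all genes, which are not matched for level. With the replicate block within genotype 15 fell. The membrane protein Scarb2 had 506, 528 and 513 CPM against 225, 231 and 221 CPM.

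Of 34 glycolysis and hypoxia genes 18 rose and 6 fell: hexokinase Hk2 had 256, 249 and 225 CPM with TGF-β1 and 57.6, 49.7 and 55.1 CPM untreated (log2 2.17), the angiogenic factor Vegfa rose (log2 2.31) and Ndrg1 fell (−2.05). Of 26 genes of lipid efflux and lipoprotein handling 7 rose and 6 fell (median log2 0.06): the cholesterol exporters Abca1 and Abcg1 rose (log2 1.09 and 0.79), while Abcg3 (−2.68) and the lipoprotein receptor Scarb1 (−0.24) fell, and Lpl, the lipoprotein lipase, fell to 1330, 1390 and 1450 CPM, against 3570, 3750 and 4030 CPM. The replication genes gave 11 rises and 1 fall (0 without both libraries numbered 2) among 40, with the origin licensing factor Cdt1 at log2 1.61, Mcm6 at 1.37 and E2f2 at 2.06, but 7 rises without the TGF-β1 library numbered 3 and 17 with the replicate block within genotype. Of 22 genes for CDK inhibitors, D cyclins and Myc 9 fell and 2 rose, or 14 fell with that block, with Cdk6 at log2 −1.21 and Myc at 0.88. Of 71 cytosolic ribosomal protein genes 16 rose, 0 of them by 2-fold, and the number was 7 without the untreated library numbered 1, 10 without the TGF-β1 library numbered 3, 44 without the untreated library numbered 2, 35 without both libraries numbered 2 and 29 with the replicate block.

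**Figure D4:**
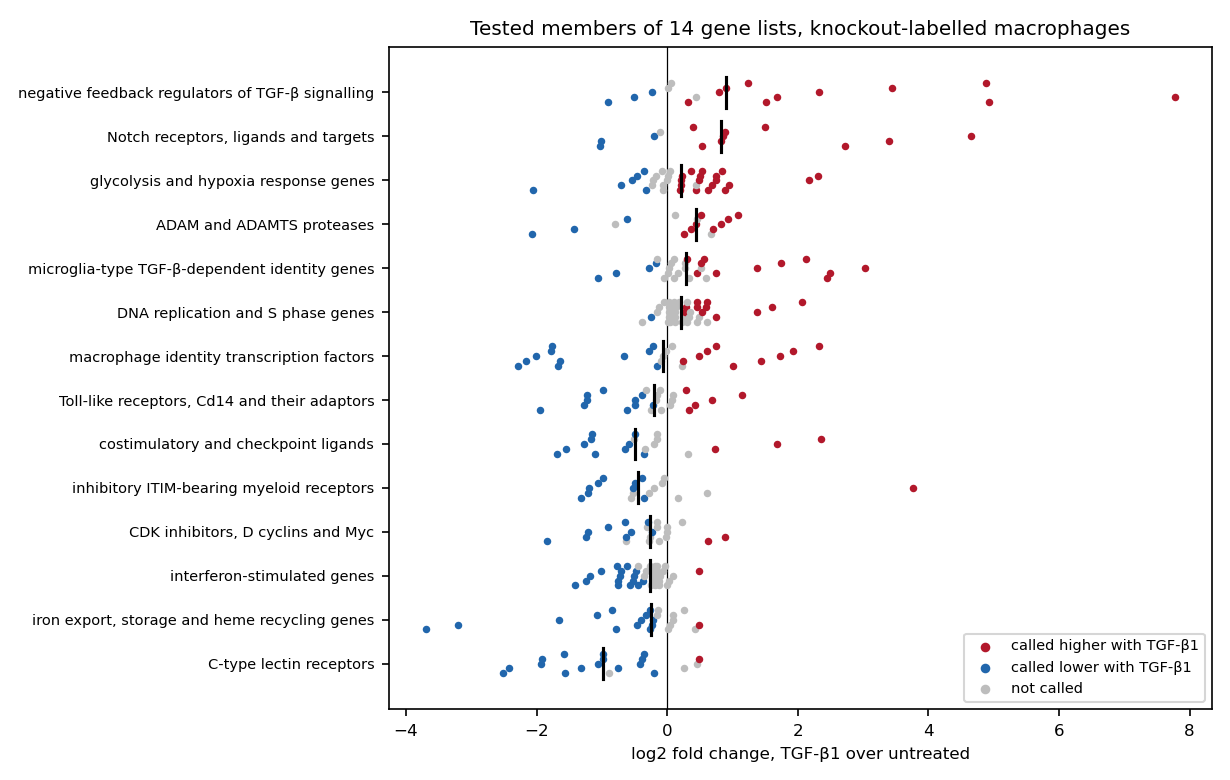
Log2 fold change (TGF-β1 over untreated) of the tested members of 14 gene lists in knockout-labelled macrophages, coloured by call, with a black bar at each list's median. Of the lists drawn, the feedback list has the highest median, 0.90, and the C-type lectins the lowest, −0.98.

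Setting the response beside that of floxed-labelled cells, the difference between the 2 responses was called for 1 of 14684 genes (0.00681%), and 493 had an unadjusted p under 0.05, of which 197 had the higher log2 change under the knockout label and 296 the lower. These 493 are a smaller share of the genes tested than the 0.05 that would pass on average with no difference in any gene. The 1 gene was Id2. Its level was 5.03-fold higher with TGF-β1 in knockout-labelled cells, from the values above, and floxed-labelled cells had 61.8, 70.6 and 68.3 CPM with TGF-β1 and 22.2, 19.7 and 20.9 CPM untreated. All 3 knockout-labelled libraries with TGF-β1 lay above all 3 floxed-labelled ones, and the untreated ones below theirs (log2 2.33 against 1.67, difference 0.65, SE 0.10, adjusted p = 0.0433). The call was lost in 14 of 21 alternatives, and it was lost on leaving out any of 10 of 12 single libraries. Without the floxed-labelled libraries numbered 1, whose Lyz2 stood apart, the difference was 0.56 with an adjusted p = 1 in the same edgeR test on 15 libraries. Since Lyz2 goes against the labels, this is a difference between libraries so labelled and not shown to be one of Smad1 loss. The differences next in order did not pass, among them Mtus1 (log2 3.06 against 2.55, unadjusted p = 0.000533) and Mir17hg, the host transcript of a microRNA cluster (1.64 against 0.78). Among genes with the lower log2 change under the knockout label, Zfp658, Tns1, Tctn1 and Adgrf1 had the lowest p, and none was called. For Pmepa1 and Slc40a1 the difference was log2 −0.05 (SE 0.25) and −0.06 (SE 0.30).

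**Figure D5:**
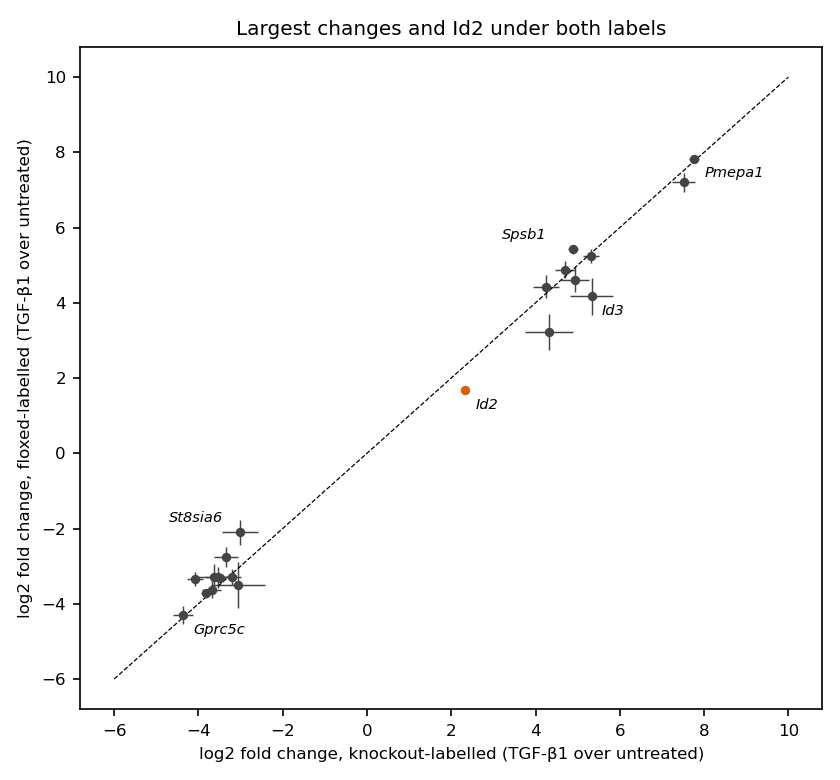
Log2 fold change with TGF-β1 in floxed-labelled cells (vertical) against that in knockout-labelled cells (horizontal) for Id2 and the genes of largest change with counts in both groups, with SE bars and the line of equality dashed. Id2, in orange, lies below the line at 2.33 and 1.67, and St8sia6 and Spsb1 lie above it without a called difference.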

How the data were processed

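The deposited table holds whole-number read counts per gene and library and the authors' FPKM values, per the file headers. The submitters' processing notes name TopHat2 2.0.9, HTSeq 0.6.1 and Cufflinks 2.1.1 and builds mm10 and GRCm38.p6. The strand setting is not given in the sources used here, so genes that overlap an antisense partner are uncertain. A further 78 per-sample columns were not used.

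Counts were tested with edgeR 4.0.16 (R 4.3.3). Genes were kept by filterByExpr and scaled by TMM, with factors of 0.978 to 1.02. The quasi-likelihood F test, two-sided, used a mean for each of the 6 groups, fitted to all 18 libraries, with 12 residual degrees of freedom, 6.41 more from the prior and a biological coefficient of variation of 8.86%. Adjusted p is the Benjamini-Hochberg value over the 14684 genes tested, called under 0.05. The procedure was tested on simulated data, where 69.7% of 99 genes changed 2-fold and 86% of 100 changed 4-fold were recovered. There 6 unchanged genes were called. Unlike these data, the simulated libraries were independent of the replicate number and few genes were changed. No 2 libraries of these groups agreed within sampling noise (chi-square over its degrees of freedom was at least 3.45).

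Same-numbered libraries deviated together from their group means (r = 0.124, 0.272 and 0.169, log2 CPM with a prior count of 2). This comes from the data, since the labels do not say what a number marks. For that reason the main test leaves the libraries unpaired, and replicate blocks are alternatives. Calls, SE and p-values are from the unpaired test unless another setting is named. The SE of an edgeR log2 change is its size divided by the square root of the F statistic, and not a fitted standard error. It may understate the error where 1 group has few counts. The block value stands beside a result where it moved a count by over 1.5 times.

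Genes were named by a fixed rule: the 15 largest rises and 15 largest falls with a mean of at least 1 CPM and no overlap, the 8 largest changes in CPM each way, up to 4 called members each way per list (53 lists) and a set of Smad and Id genes. List members outside it, such as Skil, Smurf1, Vegfa and Fth1, were chosen after their values were seen. Members and lists were chosen with earlier results of these data known. Alternatives were RLE and total count scaling, every gene kept (29506 with counts), a 1 CPM minimum on the mean (12234 genes), DESeq2 1.42.0, limma 3.58.1 on log2(FPKM + 1) or log2(FPKM + 0.1), the 6 libraries alone, replicate blocks, 15 libraries without floxed-labelled number 1, single libraries left out and, added after seeing the data, both libraries numbered 2 left out. A few list members are counted but not reported here by name.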

Additional observations from a re-analysis of the deposited data

Results flagged for a closer look

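The response of Id2 to TGF-β1 differed between the genotype labels, with a log2 change larger by 0.65 in knockout-labelled than in floxed-labelled cells by the test of the difference itself (SE 0.10, edgeR adjusted p = 0.0433, range 7.96e-05 to 1 over the alternatives). The size stayed between 0.56 and 0.72. It was 0.56 in the 15 libraries that leave out the number 1 of each floxed-labelled group. Lyz2 counts go against these labels, so the direction is one between labels.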

How the results depend on the processing

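The number of genes called higher ran from 2176 to 2966 and the number called lower from 1983 to 2950 over all alternatives, against 2578 and 2506. With the replicate block within genotype they were 2966 and 2950. The single difference between the labels became 8 with no low-count filter and 0 with total count scaling, with the replicate block over all groups, in the 15 libraries and without both knockout-labelled libraries numbered 2; it was 0 to 1 when single libraries were left out. No named gene that was called changed sign in any alternative run. Calls lower outnumbered calls higher with total count scaling (2275 higher and 2748 lower), a mean of at least 1 CPM (2397 and 2481) and the 6 libraries alone (2248 and 2328, or 2816 and 2877 with the replicate block). Which direction held more calls also turned in at least 1 alternative among actin, inflammatory, integrin, chemoattractant receptor and alternative activation genes. The block took no call from a list member named in the text and gave calls to Csf1r, F13a1 and Vcan. Of the list counts 136 of 2014 moved by over 1.5 times. Depth limits genes near 3 counts per library, such as Id1 and Hes1.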
